A study of Homo sapiens with 6 samples.

Results

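The genes described here are 42 genes of the NF-kB pathway in HL-60 cells: the NF-kB subunits, their inhibitors and kinases, the adaptors that link them to the receptors, TNF family ligands and receptors, and inflammatory target genes. They were chosen by gene symbol, not by a threshold on measured values, out of 58884 genes in the deposited table. All 42 had a row, and SOD2 had a second gene ID. Of the 42, 36 passed the filter on low counts and are called measured.

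HL-60 is an established cell line from acute myeloid leukemia that carries a mutated RAS gene. EZH2 shRNA cells were HL-60 cells stably transduced with a lentiviral vector for a short hairpin RNA (shRNA) against EZH2, the histone methyltransferase of the Polycomb complex PRC2 (3 libraries, numbered 1, 3 and 4). Control cells were the same line with a vector for a scrambled hairpin (3 libraries, numbered 3, 4 and 5). Both groups were selected with puromycin, washed free of it 2 days before the experiment and held for 24 hours in medium with 0.05% serum, and polyadenylated RNA was sequenced. How many hairpins were used, and whether each library had its own transduction, is not stated in the labels. The p-values thus measure library-to-library spread, which may be technical only.

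NF-kB is a family of transcription factors that form dimers, and IkB proteins hold these dimers in the cytoplasm. Signals from TNF, interleukin and Toll-like receptors reach the IkB kinase complex through TRAF and cIAP proteins. The kinase marks IkB for destruction, and the freed dimers switch on cytokines, chemokines and survival genes. Among the targets are genes for the pathway's own inhibitors, NFKBIA and TNFAIP3, which close feedback loops. In myeloid cells the pathway is known for the inflammatory response of monocytes and neutrophils.

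All 5 NF-kB subunit genes were lower in EZH2 shRNA cells, REL by the most, where 22.9% of all genes tested were lower. With the median of each chromosome removed 3 of the 5 still passed, and RELA turned to 0.06 on the log2 scale. Several target genes were higher, TNF 2.68-fold and IER3 3.45-fold. In a wider list of 20 other measured target genes 6 rose (30%) and 11 fell (55%), against 23.8% and 22.9% of all genes tested. Among them CCL23 rose and CXCL11 fell, and each passed the filter on low counts only because of its higher group. The feedback inhibitors went opposite ways, NFKBIA higher by 0.52 and TNFAIP3 lower by 0.71 on the log2 scale. The TNF family ligands also diverged, with TNF higher and TNFSF10 2.56-fold lower. Of 6 measured chemokine genes 5 were higher, where 23.8% of all genes tested were. Among these, CCL4 passed the filter on low counts through its EZH2 shRNA libraries alone, and the call of CXCL3 ended in 5 of 16 alternatives. Every fold change here is EZH2 shRNA over control, tested with edgeR over all 16859 genes that passed the filter.

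Promoter sequences of 6 members are shown because their genes share or lack a match to a binding motif while their mRNA levels differed in direction. They are the 250 bases before the RefSeq transcription start on GRCh38.p14, read in the direction of transcription, and sequences matched for 35 of the 42 members. In NFKBIA, CXCL3, REL and TNFAIP3 the capitals mark the kappaB decamer consensus bound by NF-kB, searched on both strands. A window without a match, as in TNF and TNFSF10, may still hold NF-kB sites that differ from this consensus. In TNF they mark TATAAA, a match to the TATA box, and in TNFSF10 the core of the interferon-stimulated response element (GAAA, any 2 bases, GAAA), which lies there on the opposite strand. NFKBIA, CXCL3 and TNF were higher in EZH2 shRNA cells, and REL, TNFAIP3 and TNFSF10 lower.
NFKBIA (chr14:35404750-35404999, minus strand): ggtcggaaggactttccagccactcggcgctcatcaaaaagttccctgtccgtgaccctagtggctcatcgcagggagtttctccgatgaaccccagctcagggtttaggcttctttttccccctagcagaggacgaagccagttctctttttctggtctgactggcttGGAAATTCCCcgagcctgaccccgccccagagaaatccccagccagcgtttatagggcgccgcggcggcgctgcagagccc
CXCL3 (chr4:74038690-74038939, minus strand): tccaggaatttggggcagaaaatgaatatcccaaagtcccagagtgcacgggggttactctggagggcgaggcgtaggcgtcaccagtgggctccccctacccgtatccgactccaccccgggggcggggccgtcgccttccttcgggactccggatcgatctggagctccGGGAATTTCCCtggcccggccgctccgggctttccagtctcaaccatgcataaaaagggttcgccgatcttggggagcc
TNF (chr6:31575315-31575564, plus strand): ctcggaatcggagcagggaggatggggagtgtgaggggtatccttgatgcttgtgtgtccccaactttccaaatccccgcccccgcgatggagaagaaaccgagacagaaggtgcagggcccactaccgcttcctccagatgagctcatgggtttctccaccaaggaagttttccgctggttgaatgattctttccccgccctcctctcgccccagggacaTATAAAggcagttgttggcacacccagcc
REL (chr2:60881324-60881573, plus strand): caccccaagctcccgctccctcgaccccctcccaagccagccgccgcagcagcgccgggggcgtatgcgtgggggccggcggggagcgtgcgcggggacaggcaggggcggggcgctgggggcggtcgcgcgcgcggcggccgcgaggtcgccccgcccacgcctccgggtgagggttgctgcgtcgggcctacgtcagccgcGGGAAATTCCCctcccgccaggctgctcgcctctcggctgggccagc
TNFAIP3 (chr6:137867009-137867258, plus strand): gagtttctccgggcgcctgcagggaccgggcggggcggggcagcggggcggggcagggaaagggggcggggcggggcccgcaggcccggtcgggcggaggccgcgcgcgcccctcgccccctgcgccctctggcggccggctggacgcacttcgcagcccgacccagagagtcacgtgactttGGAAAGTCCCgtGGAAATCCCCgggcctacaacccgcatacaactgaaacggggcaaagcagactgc
TNFSF10 (chr3:172523431-172523680, minus strand): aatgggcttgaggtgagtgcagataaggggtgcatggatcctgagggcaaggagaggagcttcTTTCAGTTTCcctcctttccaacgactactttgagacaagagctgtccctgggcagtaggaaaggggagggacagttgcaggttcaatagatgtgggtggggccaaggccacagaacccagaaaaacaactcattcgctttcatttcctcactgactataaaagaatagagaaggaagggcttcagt

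The kappaB consensus was present in this window for 15 of the 35 members, against 9.96% of all 35116 RefSeq promoters. In CXCL3 and REL the capitals cover 2 overlapping matches, and in TNFAIP3 2 separate ones. Among members with a sequence, 5 of 13 higher genes and 4 of 9 lower genes had the motif. The core of the interferon-stimulated response element was found in 3 members, TNFSF10, RELA and TNFRSF1B, against 3.02% of all promoters. The AP-1 motif TGANTCA was found in 5 members, CXCL8, PLAUR, NFKBIB, IKBKG and IL1A, against 6.57% of all promoters. The GAS motif TTCNNNGAA, bound by STAT factors, was found in 5 members, also against 6.57% of all promoters. TATAAA was found in 9 members, against 10.7%. A member counted if any window under its symbol held the motif, while the shares of all promoters are per single promoter. The measures can thus differ for genes with several starts, and no enrichment was tested. All motifs were searched on both strands, each on its own, so that matches to different motifs may overlap. These matches describe the sequence and are not measured binding sites. For CXCL3, REL, TNFAIP3 and TNFSF10 the gene record of the deposited table begins inside the window, upstream of the RefSeq start.

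Total counts lay between 50809853 and 85074624 in EZH2 shRNA libraries and between 39717343 and 51622861 in control libraries. EZH2 itself (ENSG00000106462) had 79.98 ± 3.01 CPM (counts scaled to library size, per 1e+06) in EZH2 shRNA cells and 149.5 ± 1.61 CPM in controls (SD, n = 3 each; log2 fold change -0.90). The exact two-sided permutation p for EZH2 was 0.1, the smallest that 3 against 3 libraries can give. Of 7 measured promyelocyte marker genes 3 rose and 1 fell, against 23.8% and 22.9% of all genes tested. PRTN3 was at 96.5 CPM in EZH2 shRNA cells and 21.8 CPM in controls, and AZU1 at 60.8 CPM against 37.8 CPM. MYB was at 564.7 CPM against 489.2 CPM, and CTSG at 149.5 CPM against 174.5 CPM. With MPO, which makes up most of the sum and did not pass the test, the list summed to between 11350 and 11580 CPM in EZH2 shRNA libraries and between 11100 and 11910 CPM in controls, although ELANE, the neutrophil elastase gene among them, was at 0.145 CPM against 0.0349 CPM. Mature monocyte markers were nearly absent: their 8 genes summed to between 0.944 and 1.10 CPM against between 0.354 and 0.448 CPM, most of it in EZH2 shRNA cells from CSF1R (0.87 CPM against 0.105 CPM, tested only because of its EZH2 shRNA libraries), with CD14 at 0.0325 CPM against 0.0512 CPM. Lymphocyte markers summed to between 15.8 and 16.4 CPM against between 13.6 and 14.7 CPM, nearly all from NKG7, with MS4A1 at 0. Mature neutrophil markers summed to between 28.4 and 32.5 CPM against between 26.7 and 31.9 CPM, and MMP8 and LCN2 were at 0. Among eosinophil and basophil markers 6 of 7 measured genes were higher, against 23.8% of all genes tested. Of the 6, CPA3 passed the filter through its EZH2 shRNA libraries alone. IL5RA, at 0.177, 0.173 and 0.283 CPM in controls against a filter cutoff of 0.195 CPM, was also tested only because of its EZH2 shRNA libraries. That list summed to between 143.6 and 159.9 CPM against between 6.98 and 7.73 CPM, with CCR3 at 0.0392 CPM against 0.0276 CPM. The part of any of these markers in the changes below was not tested.

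Of the 36 measured members 16 rose and 10 fell in EZH2 shRNA cells, and 10 did not pass the test. Over all genes tested 46.7% passed, 23.8% higher and 22.9% lower. The median log2 fold change was 0.16 over the measured members and 0.01 over all genes, and the median size was 0.36 against 0.24. At least 2-fold changes were found for 6 members, 5 higher (TNF, IER3, CXCL3, CCL3 and CCL4) and 1 lower (TNFSF10), against 4.36% and 2.18% of all genes. Changes of at least 0.5 on the log2 scale at a mean of at least 1 CPM were found for 7 members that rose (NFKBIA, TRAF1, TNF, TNFAIP2, ICAM1, PLAUR and IER3) and 3 that fell (REL, TNFAIP3 and TNFSF10), against 6.39% and 6% of all genes. The libraries of the groups did not overlap for 29 of the 36, against 54.9% of all genes tested. CCL4 passed the low-count filter on its EZH2 shRNA libraries alone, so it had to differ.

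**Figure D1:**
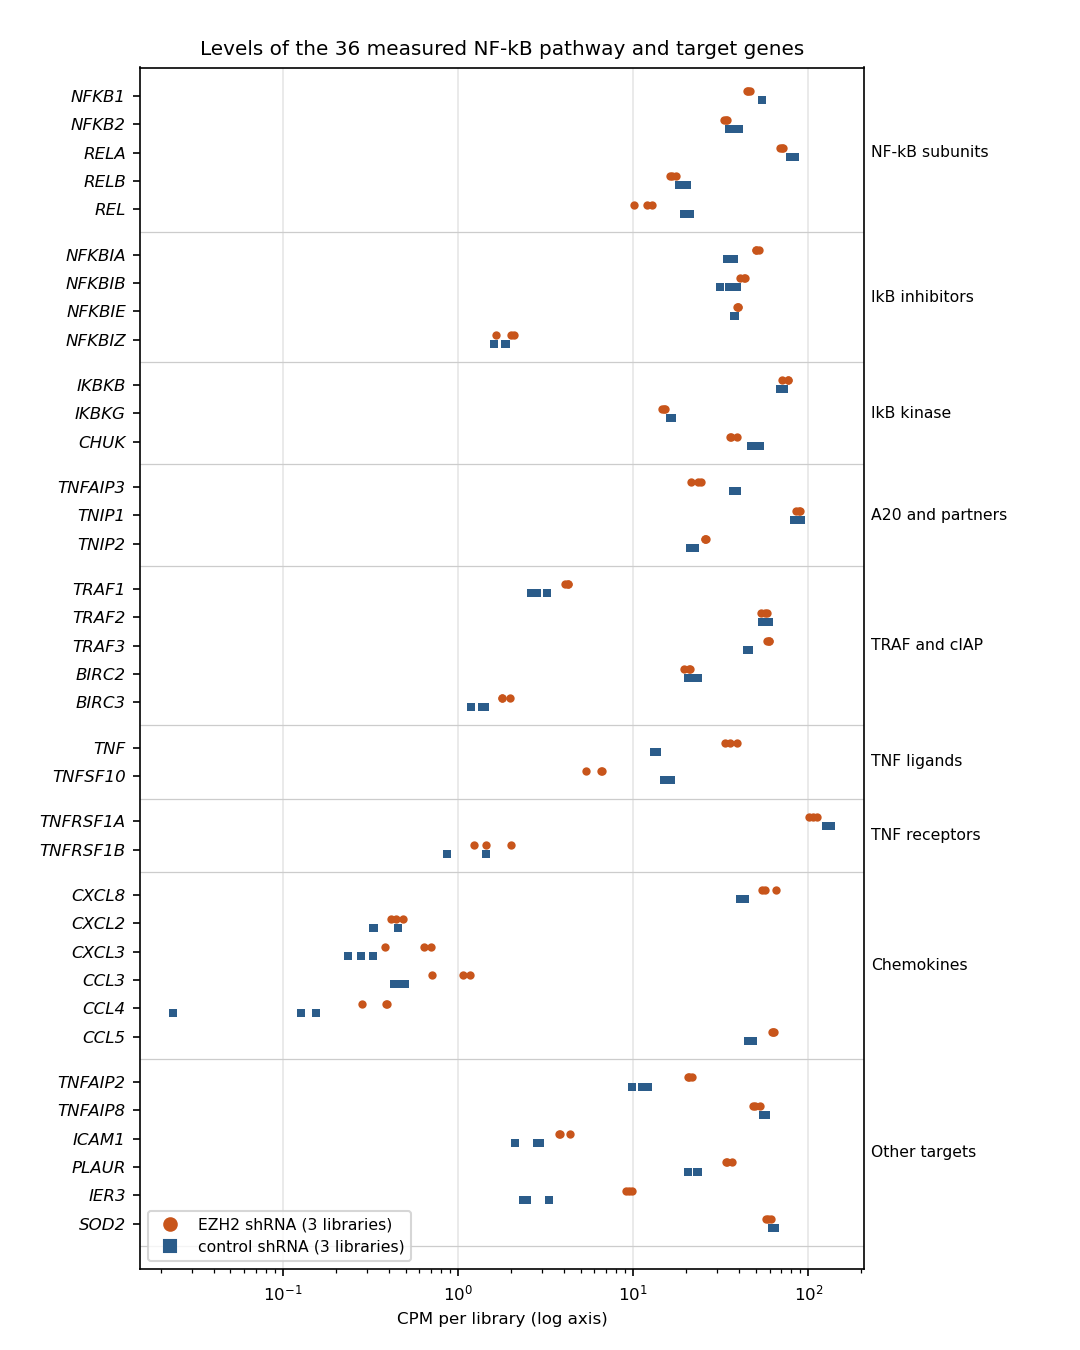
CPM of each of the 36 measured genes in every library on a log axis, grouped by role, with EZH2 shRNA libraries as orange circles above control libraries as blue squares. The circles of TNF lie between 33.2 and 38.9 CPM, right of the squares between 13.1 and 13.7 CPM, whereas the circles of TNFSF10 and REL lie left of their squares.

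Of the 5 NF-kB subunit genes all 5 fell, with a median log2 fold change of -0.21, where 22.9% of all genes tested were lower. REL (ENSG00000162924; GRCh38 chr2:60881521-60931610, plus strand), which encodes c-Rel, a transactivating subunit of blood cells, had 10.1, 12.0 and 12.9 CPM in EZH2 shRNA libraries, against 19.4, 20.95 and 20.3 CPM in control libraries. All EZH2 shRNA values lay below all control values, and the log2 fold change was -0.79 (SE 0.08, adjusted p = 7.05e-07). The promoter of REL carries the kappaB match printed above. RELA (ENSG00000173039; chr11:65653597-65663090, minus strand), the main transactivating subunit, had 71.2, 70.9 and 69.0 CPM in EZH2 shRNA libraries, against 84.2, 78.5 and 81.1 CPM in controls (log2 fold change -0.21, SE 0.04, adjusted p = 0.000645). NFKB1 (ENSG00000109320; chr4:102501331-102617302, plus strand), the precursor of the DNA-binding partner of RELA, had 46.4, 44.4 and 45.1 CPM in EZH2 shRNA libraries, against 54.2, 54.3 and 54.4 CPM in controls (-0.26, SE 0.04, adjusted p = 0.000106). The libraries of the groups did not overlap for either gene.

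The remaining subunits belong to the non-canonical arm of the pathway. RELB (ENSG00000104856) had 16.6, 17.5 and 16.3 CPM in EZH2 shRNA libraries, against 20.3, 19.3 and 18.2 CPM in controls, a log2 fold change of -0.20 (SE 0.07, adjusted p = 0.0208). NFKB2 (ENSG00000077150), the precursor of the partner of RELB, had 34.1, 34.5 and 33.2 CPM in EZH2 shRNA libraries, against 36.8, 35.4 and 39.97 CPM in controls (-0.14, SE 0.05, adjusted p = 0.0428). These are small differences near the threshold. The call of NFKB2 ended in 11 of 17 alternatives, among them without EZH2 library 4 (adjusted p = 0.149), control 3 (0.0771) or control 5 (0.225). That of RELB ended without EZH2 library 4 (0.0932), control 3 (0.11) or control 4 (0.0556) and on unfiltered FPKM (0.0589).

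Some chromosomes had shifted median fold changes in these libraries, and this bears on the subunits. Whether whole chromosomes or parts of them moved was not tested. The median log2 fold change was -0.30 over 722 genes of chromosome 2 and -0.27 over 593 genes of chromosome 11. It was 0.15 over 641 genes of chromosome 17 and 0.20 over 217 genes of chromosome 13, which holds no measured member. With the median of its chromosome removed RELA was at 0.06 (adjusted p = 0.254) and its direction turned, NFKB2 on chromosome 10 was at -0.10 (0.166), and REL on chromosome 2 was at -0.49 (0.000128). NFKB1 was at -0.19 (0.00199) and RELB at -0.27 (0.00304). Of the 5 subunits, 3 thus still passed and were lower relative to their chromosomes.

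**Figure D2:**
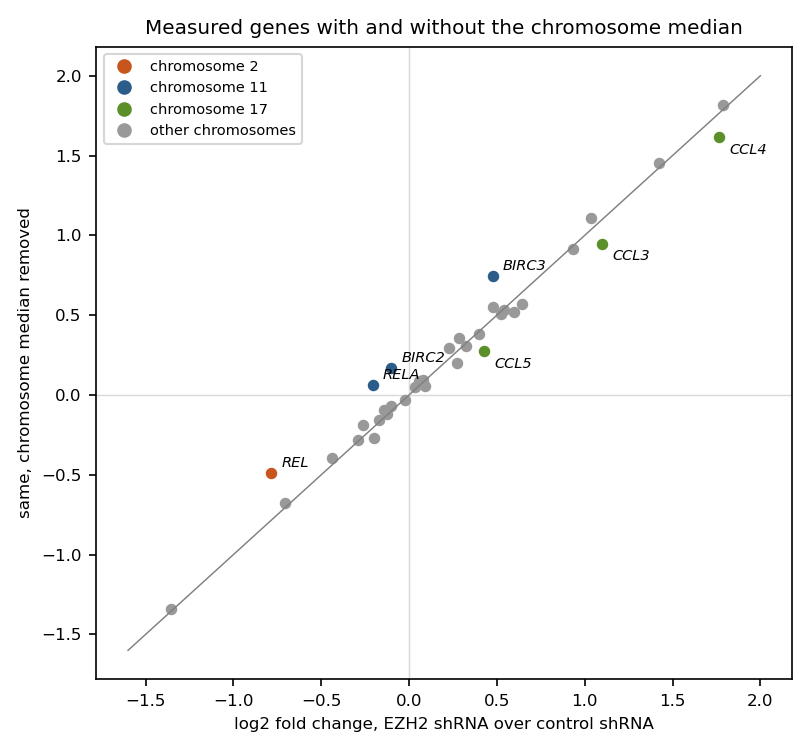
Log2 fold change of each of the 36 measured genes (x axis) against the same value with the median of its chromosome removed (y axis), with genes of chromosomes 2, 11 and 17 coloured and named and the line of equality drawn. RELA and BIRC2 of chromosome 11 move across 0, REL stays below it at -0.49, and CCL3, CCL4 and CCL5 of chromosome 17 stay above it.

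Per gene length RELA had the highest level and REL the lowest of the subunits in both groups, on the deposited FPKM scale (fragments scaled to gene length and library size). RELA was at 12.8 ± 0.22 FPKM in EZH2 shRNA cells and 14.9 ± 0.55 FPKM in controls. NFKB1 was at 7.07 ± 0.14 FPKM against 8.52 ± 0.0015 FPKM, and NFKB2 at 7.14 ± 0.15 FPKM against 7.92 ± 0.49 FPKM. RELB was at 5.53 ± 0.23 FPKM against 6.38 ± 0.36 FPKM, and REL was lowest, at 0.879 ± 0.11 FPKM against 1.53 ± 0.056 FPKM (SD, n = 3 each). REL made up between 2.27% and 2.95% of the summed subunit FPKM in EZH2 shRNA libraries and between 3.69% and 4.14% in controls. The sum of the 5 subunits was between 32.9 and 33.9 FPKM in EZH2 shRNA libraries and between 38.3 and 39.97 FPKM in controls.

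Of the 4 IkB inhibitor genes 2 rose and 2 did not pass the test, where 46.7% of all genes tested passed. NFKBIA (ENSG00000100906; chr14:35401511-35404749, minus strand), the classical IkB and itself an NF-kB target, had 52.4, 50.5 and 50.4 CPM in EZH2 shRNA libraries, against 34.7, 37.8 and 34.1 CPM in controls. Every EZH2 shRNA value lay above every control value, and the log2 fold change was 0.52 (SE 0.05, adjusted p = 3.04e-07). NFKBIB, a second IkB, was at 42.5 ± 1.45 CPM in EZH2 shRNA cells and 35.2 ± 3.91 CPM in controls (0.27, SE 0.07, adjusted p = 0.00379), and it overlaps SIRT2 on the other strand. NFKBIE, at 39.4 ± 0.32 CPM against 37.9 ± 0.41 CPM, had a log2 fold change of 0.05 (SE 0.05, adjusted p = 0.37) and did not pass although its libraries did not overlap. NFKBIZ, a nuclear IkB that acts as a cofactor of NF-kB, was weakly expressed, at 1.91 ± 0.22 CPM against 1.78 ± 0.16 CPM (0.08, SE 0.17, adjusted p = 0.726). The ratio of NFKBIA to RELA on the FPKM scale was 1.69, 1.64 and 1.68 in EZH2 shRNA libraries and 0.948, 1.11 and 0.968 in controls, so it was above 1.6 in the first group and below 1.2 in the second.

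The ubiquitin-editing inhibitors showed no common direction. TNFAIP3 (ENSG00000118503; chr6:137867214-137883312, plus strand), the deubiquitinase that switches NF-kB signalling off and a target gene of NF-kB like NFKBIA, had 21.4, 23.5 and 24.3 CPM in EZH2 shRNA libraries, against 37.4, 37.1 and 38.9 CPM in controls. All 3 EZH2 shRNA libraries lay below all controls, with a log2 fold change of -0.71 (SE 0.06, adjusted p = 3.86e-08). TNIP2, a partner of TNFAIP3, was at 25.8 ± 0.28 CPM in EZH2 shRNA cells and 22.1 ± 0.78 CPM in controls (0.23, SE 0.06, adjusted p = 0.0034). TNIP1, another partner, was at 87.9 ± 2.06 CPM against 86.0 ± 4.02 CPM and did not pass (0.03, SE 0.04, adjusted p = 0.583). TNFAIP3 and NFKBIA, both with kappaB matches in the promoters printed above, thus lay on opposite sides of 0.

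Of the 3 IkB kinase genes 1 fell and 2 did not pass, where 46.7% of all genes tested passed. CHUK (IKK alpha) fell to 36.9 ± 1.81 CPM in EZH2 shRNA cells, against 50.0 ± 2.997 CPM in controls (-0.44, SE 0.05, adjusted p = 4.87e-06). IKBKB (IKK beta), the kinase of the canonical arm, was at 74.5 ± 3.37 CPM against 70.0 ± 2.09 CPM (0.09, SE 0.05, adjusted p = 0.114), and it passed without EZH2 library 1 (0.0257). IKBKG, the regulatory subunit NEMO, was at 14.9 ± 0.30 CPM against 16.3 ± 0.21 CPM (-0.13, SE 0.06, adjusted p = 0.118), and it passed on the FPKM scale (limma adjusted p between 0.0335 and 0.049). IKBKG has a near-identical pseudogene, IKBKGP1, with 2683 counts in EZH2 shRNA libraries and 1883 in controls over 3 libraries of unequal depth each (log2 fold change 0.01, adjusted p = 0.899), so the level of IKBKG is uncertain.

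Among the TRAF and cIAP genes 3 of 5 rose and 2 did not pass, where 23.8% of all genes tested rose. TRAF1 (ENSG00000056558; chr9:120902393-120929173, minus strand), an adaptor that is itself induced by NF-kB, had 4.24, 4.05 and 4.23 CPM in EZH2 shRNA libraries, against 3.21, 2.59 and 2.83 CPM in controls (0.54, SE 0.13, adjusted p = 0.00186). TRAF3, which restrains the non-canonical arm by keeping the kinase NIK low, was at 59.4 ± 0.89 CPM in EZH2 shRNA cells and 45.1 ± 0.58 CPM in controls (0.40, SE 0.04, adjusted p = 1.04e-06). The groups did not overlap for either. BIRC3 (cIAP2), a ubiquitin ligase and NF-kB target, was at 1.85 ± 0.12 CPM against 1.32 ± 0.12 CPM (0.48, SE 0.17, adjusted p = 0.0322). Its call ended without EZH2 library 3 (0.0873), EZH2 library 4 (0.0615), control 3 (0.12) or control 4 (0.0648), and in 9 of 17 alternatives in all. TRAF2, the adaptor of the TNF receptor, was at 55.9 ± 2.33 CPM against 56.7 ± 2.54 CPM (-0.02, SE 0.05, adjusted p = 0.736), and BIRC2 (cIAP1) at 20.4 ± 0.94 CPM against 22.0 ± 1.40 CPM (-0.10, SE 0.07, adjusted p = 0.217). Both cIAP genes lie on chromosome 11, and with its median removed BIRC2 was at 0.17 (adjusted p = 0.0482) and BIRC3 at 0.74 (0.00206).

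The TNF family ligands moved in opposite directions. TNF (ENSG00000232810; chr6:31575565-31578336, plus strand), the founding inflammatory cytokine of the family, had 35.8, 38.9 and 33.2 CPM in EZH2 shRNA libraries, against 13.1, 13.5 and 13.7 CPM in controls. The groups were far apart, with a log2 fold change of 1.42 (SE 0.07, adjusted p = 4.83e-11). Per gene length TNF was at 21.3 ± 1.72 FPKM in EZH2 shRNA cells and 7.97 ± 0.15 FPKM in controls. TNFSF10 (ENSG00000121858; chr3:172505508-172523475, minus strand), the death ligand TRAIL and known as an interferon-inducible gene, had 6.51, 5.38 and 6.63 CPM in EZH2 shRNA libraries, against 16.4, 15 and 16.1 CPM in controls (-1.35, SE 0.09, adjusted p = 3.54e-09). The ratio of TNF to TNFSF10 on the FPKM scale was between 10.3 and 14.8 in EZH2 shRNA libraries and between 1.64 and 1.84 in controls. LTB, which forms membrane lymphotoxin, was not measured, with 1, 8 and 7 counts in EZH2 shRNA libraries and 1, 1 and 1 in controls.

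Of the 2 TNF receptor genes 1 fell and 1 did not pass, where 46.7% of all genes tested passed. TNFRSF1A, the receptor through which TNF signals in most cells, was among the most abundant members, at 26.3 ± 1.33 FPKM in EZH2 shRNA cells and 32.5 ± 1.15 FPKM in controls. It fell to 106 ± 5.12 CPM in EZH2 shRNA cells, against 130.3 ± 4.33 CPM in controls (-0.29, SE 0.04, adjusted p = 3.69e-05), and its libraries did not overlap. TNFRSF1B, the second TNF receptor, was at 1.55 ± 0.39 CPM against 1.25 ± 0.33 CPM (0.32, SE 0.24, adjusted p = 0.288), and its libraries overlapped.

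**Figure D3:**
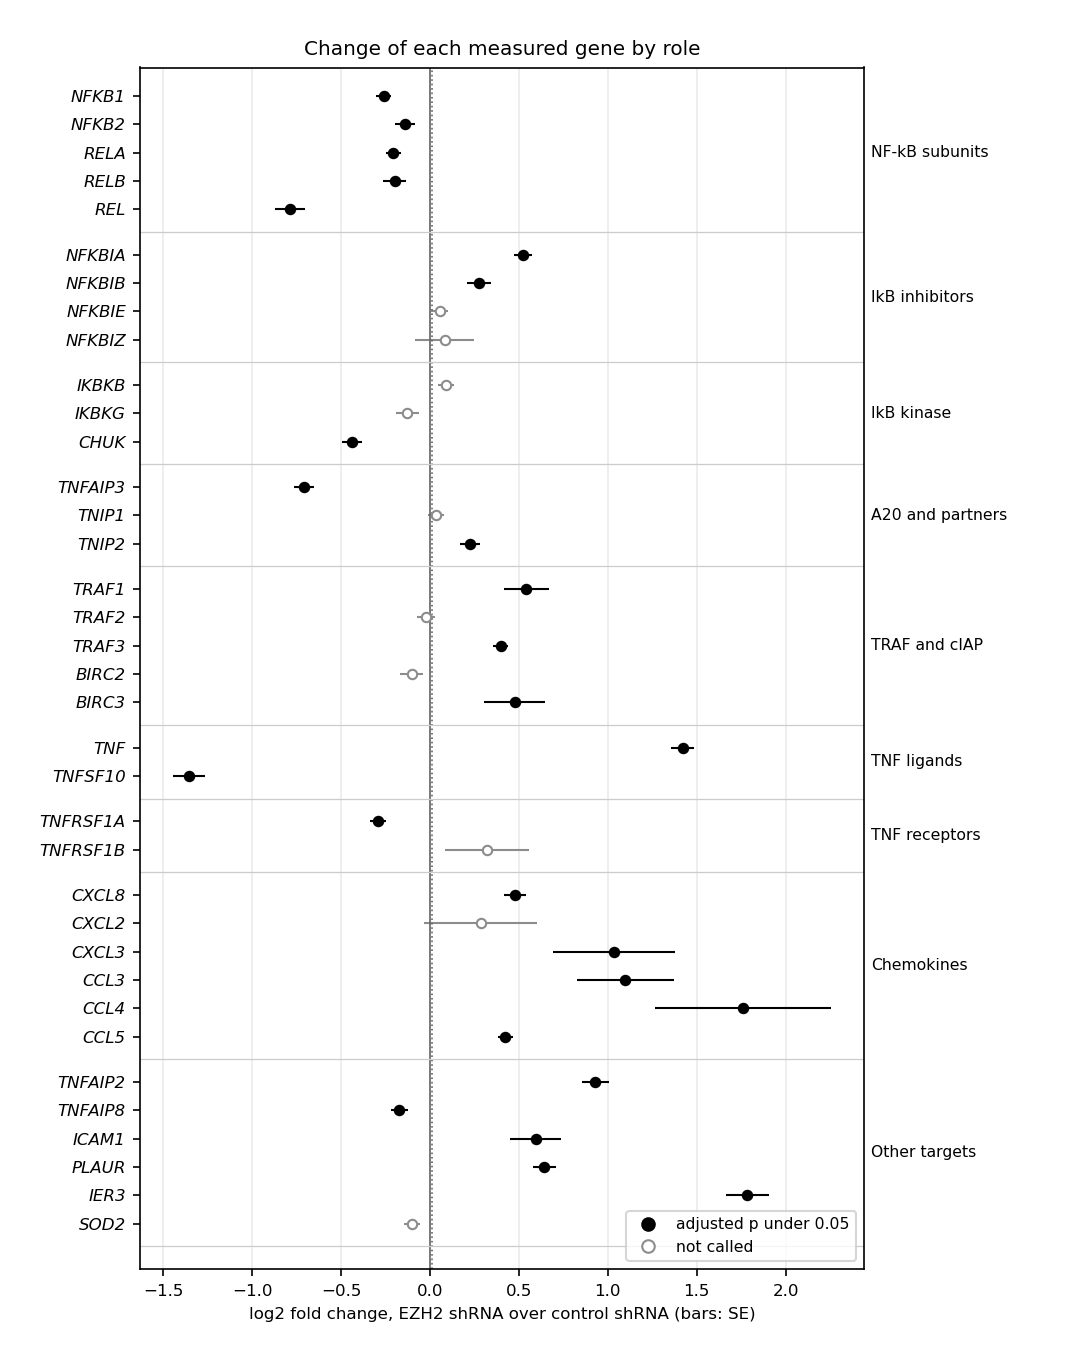
Log2 fold change of each of the 36 measured genes, EZH2 shRNA over control shRNA, with bars of 1 SE, grouped by role; filled points passed an adjusted p of 0.05 and the dotted line is the median of all genes. The 5 subunits lie left of 0, between -0.79 and -0.14, and all 6 chemokines lie right of 0, between 0.28 and 1.76.

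The interleukin genes were at or near the floor. IL6 had 0 counts in all 6 libraries, which allows up to 3 counts per library, or between 0.0353 and 0.0759 CPM. IL1B had 5, 1 and 8 counts in EZH2 shRNA libraries, against 1, 1 and 0 in controls. IL1A had 2, 1 and 1 counts, against 1, 3 and 1. No fold change is given for these genes, which differ by a few reads.

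Of the 6 measured chemokine genes 5 rose, against 23.8% of all genes tested, though only CXCL8 and CCL5 were abundant. Among the 5, CCL4 passed the low-count filter through its EZH2 shRNA libraries alone. CXCL8, the main neutrophil attractant, had 65.0, 54.4 and 56.4 CPM in EZH2 shRNA libraries, against 41.4, 43.7 and 41.0 CPM in controls (0.48, SE 0.06, adjusted p = 1.05e-05). CCL5, known as RANTES and an attractant of T cells, monocytes and eosinophils, had 63.0, 61.7 and 64.0 CPM in EZH2 shRNA libraries, against 48.2, 47.0 and 45.3 CPM in controls (0.42, SE 0.04, adjusted p = 6.56e-07). For both genes every EZH2 shRNA library lay above every control. With the median of chromosome 17 removed CCL5 was at 0.28 (adjusted p = 8.27e-05). At 41.6 ± 0.68 FPKM in EZH2 shRNA cells and 31.2 ± 1.03 FPKM in controls, CCL5 was the member with the highest level per length in the first group.

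The macrophage inflammatory proteins CCL3 and CCL4 were higher from low levels. CCL3 had 53, 38 and 99 counts in EZH2 shRNA libraries, against 17, 26 and 19 in controls, or 0.98 ± 0.24 CPM against 0.459 ± 0.036 CPM (1.10, SE 0.27, adjusted p = 0.0033). CCL4 had 14, 21 and 33 counts against 5, 8 and 1, a log2 fold change of 1.76. It passed the low-count filter through its EZH2 shRNA libraries alone, so it had to differ and no test is given. Both have near-identical copies beside them on chromosome 17, and reads could be split between the copies. CCL3L1 had 223, 234 and 317 counts in EZH2 shRNA libraries, against 32, 41 and 30 in controls (2.44, SE 0.16, adjusted p = 3.85e-09). CCL4L2 had 69, 77 and 111 counts against 7, 11 and 7. Either copy had more counts in every EZH2 shRNA library than its listed relative. Values of CCL3 and CCL4 as single genes are uncertain for this reason.

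The CXC chemokines that resemble one another were close to the floor. CXCL3 had 19, 34 and 59 counts in EZH2 shRNA libraries, against 11, 17 and 10 in controls (1.03, SE 0.34, adjusted p = 0.0208). Its call ended without EZH2 library 4 (0.107), control 3 (0.0617) or control 5 (0.0821) and with DESeq2 (0.0554). CXCL2 had 22, 22 and 41 counts against 18, 17 and 14 (0.28, SE 0.32, adjusted p = 0.499). CXCL1 had 1, 3 and 1 counts against 0, 0 and 0, and the monocyte attractant CCL2 0, 1 and 2 counts against 0, 0 and 0, and neither was measured. Copies within the CXCL family are similar in sequence, which adds to the uncertainty at these counts.

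Of the 6 other target genes 4 rose and 1 fell, against 23.8% and 22.9% of all genes tested. IER3 (ENSG00000137331; chr6:30743199-30744548, minus strand), an immediate early survival gene that is also a target of ERK, had 9.78, 9.09 and 9.43 CPM in EZH2 shRNA libraries, against 2.46, 3.32 and 2.36 CPM in controls. Its log2 fold change of 1.78 (SE 0.12, adjusted p = 4.52e-09) was the largest among all 36 measured members, and the antisense gene IER3-AS1 overlaps it. TNFAIP2 (ENSG00000185215; chr14:103123442-103137439, plus strand), a TNF-induced protein of membrane protrusions, had 20.7, 21.8 and 20.5 CPM in EZH2 shRNA libraries, against 12.1, 9.82 and 11.2 CPM in controls (0.93, SE 0.08, adjusted p = 5.32e-08). PLAUR (ENSG00000011422; chr19:43646095-43670547, minus strand), the urokinase receptor of migrating leukocytes, had 36.8, 33.8 and 34.2 CPM against 23.2, 23.3 and 20.5 CPM (0.64, SE 0.06, adjusted p = 2.8e-07). All EZH2 shRNA libraries were above all controls for these 3 genes.

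ICAM1 (ENSG00000090339; chr19:10271093-10286615, plus strand), the adhesion molecule that binds leukocyte integrins, had 3.82, 4.35 and 3.75 CPM in EZH2 shRNA libraries, against 2.94, 2.82 and 2.10 CPM in controls (0.60, SE 0.14, adjusted p = 0.0026). Records on the other strand overlap ICAM1. TNFAIP8, a regulator of cell survival, fell to 50.2 ± 2.69 CPM in EZH2 shRNA cells, against 56.6 ± 1.55 CPM in controls (-0.17, SE 0.05, adjusted p = 0.00754), and lost its call without EZH2 library 4 (0.062). SOD2, the mitochondrial superoxide dismutase, was at 59.1 ± 2.06 CPM against 63.4 ± 1.42 CPM and did not pass (-0.10, SE 0.04, adjusted p = 0.0707), though it did without EZH2 library 1 (0.0128). The second SOD2 record overlaps the first on the same strand and had 0, 0 and 0 counts against 0, 1 and 1, and reads in the shared part may not be assigned to either. SOD2 also overlaps WTAP on the other strand.

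A wider list of 108 other genes of the pathway, of which 106 had a row and 77 were measured, held 22 rises (28.6%) and 34 falls (44.2%), with a median log2 fold change of -0.10. Over all genes tested 23.8% were higher and 22.9% lower. Both counts of the wider list include genes that passed the filter on low counts through their higher group alone. Among upstream signalling genes 8 of 31 rose (25.8%, near the share of all genes) and 12 fell (38.7%). Of these, CD40 passed the filter through its EZH2 shRNA libraries alone and IRAK2 through its control libraries alone. TLR4, the receptor for bacterial lipopolysaccharide, rose to 37.1 ± 1.13 CPM in EZH2 shRNA cells, against 23.0 ± 0.75 CPM in controls (0.69), and MAP3K14, the kinase NIK of the non-canonical arm, rose to 17.9 ± 0.41 CPM, against 11.1 ± 0.17 CPM (0.69). LTBR, the lymphotoxin beta receptor, fell to 10.95 ± 0.78 CPM, against 19.2 ± 1.36 CPM (-0.80). IRAK3, IRAK4 and MYD88, genes of Toll and interleukin receptor signalling with unlike roles in it, fell by 0.46, 0.43 and 0.40 on the log2 scale. Adjusted p-values for these 6 genes were between 2.31e-08 and 1.35e-05.

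Among other inhibitors of the pathway 2 of 13 rose (15.4%) and 7 fell (53.8%), against 23.8% and 22.9% of all genes tested. CYLD, a deubiquitinase that like TNFAIP3 removes activating ubiquitin chains, fell to 12.3 ± 0.45 CPM in EZH2 shRNA cells, against 21.7 ± 0.44 CPM in controls (-0.82, SE 0.06, adjusted p = 2.74e-08). NLRC5, COMMD1 and TOLLIP fell by 0.60, 0.38 and 0.21, while OTULIN, which trims linear ubiquitin chains, and the RNase gene ZC3H12A rose by 0.29 and 0.35. With chromosome medians removed the calls of COMMD1 on chromosome 2 (-0.08, adjusted p = 0.374) and TOLLIP on chromosome 11 (0.06, adjusted p = 0.394) ended, and TOLLIP changed direction.

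Among other ligands and receptors, of the TNF and interleukin families, 6 of 13 genes rose (46.2%) and 4 fell (30.8%). Over all genes tested the shares were 23.8% and 22.9%. IL1RN, among the falls, passed the filter on low counts through its control libraries alone. TNFSF13B (BAFF), a B-cell survival factor, fell to 3.02 ± 0.10 CPM in EZH2 shRNA cells, against 10.1 ± 0.52 CPM in controls (-1.74, SE 0.10, adjusted p = 4.79e-10). TNFRSF21, the death receptor DR6, rose to 14.4 ± 0.42 CPM, against 4.99 ± 0.42 CPM (1.53, SE 0.09, adjusted p = 5.22e-10), and TNFSF9, the ligand of 4-1BB, to 2.41 ± 0.31 CPM, against 0.978 ± 0.15 CPM (1.28, SE 0.18). The TRAIL receptor genes TNFRSF10A and TNFRSF10B rose by 0.27 and 0.18, and the decoy receptor gene TNFRSF10C, at 0.326 ± 0.092 CPM against 0.864 ± 0.24 CPM, fell by 1.38. The ligand TNFSF10 itself was lower, as given above.

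Of 20 other target genes 6 rose (30%, near the 23.8% of all genes tested) and 11 fell (55%, against 22.9%). CCL23, among the rises, was tested only because of its EZH2 shRNA libraries. The interferon-inducible chemokine gene CXCL10 fell by 1.13, to 1.84 ± 0.26 CPM in EZH2 shRNA cells, against 4.04 ± 0.30 CPM in controls. Its relative CXCL11 was at 0.148 ± 0.0064 CPM against 1.69 ± 0.097 CPM (SD, n = 3 each). Both overlap ART3 on the other strand. CXCL11 lay under the filter cutoff of 0.195 CPM in all EZH2 shRNA libraries and passed through the control libraries alone, so it had to differ. CD44, the hyaluronan receptor, fell by 0.43 (-0.16 with the median of chromosome 11 removed) and VEGFA by 0.35, while the autophagy receptor gene SQSTM1 rose by 0.49. Adjusted p-values for the 4 genes other than CXCL11 were between 3.48e-08 and 6.82e-06. In bulk RNA a change in the share of cells with a transcript and a change in its amount per cell cannot be told apart, here and for every gene above.

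**Figure D4:**
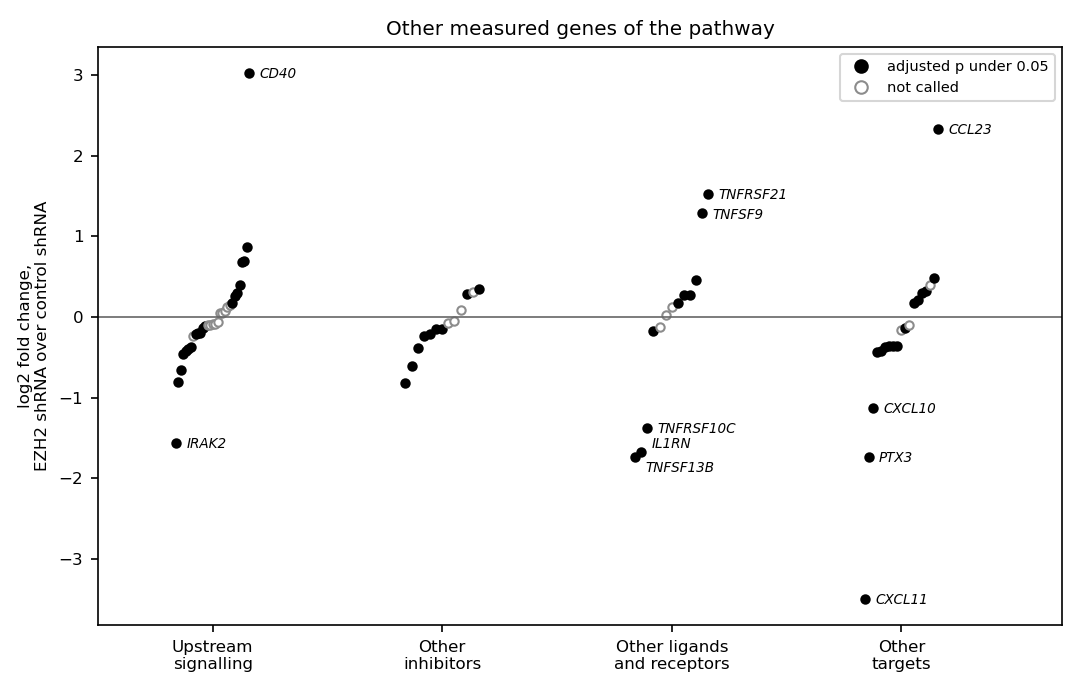
Log2 fold change, EZH2 shRNA over control shRNA, of the other measured pathway genes in 4 lists, 1 point per gene in order of value; filled points passed an adjusted p of 0.05 and genes at least 2-fold higher or lower carry their names. CD40, CCL23, TNFRSF21 and TNFSF9 lie above 1, and IRAK2, IL1RN, PTX3, TNFRSF10C, TNFSF13B, CXCL10 and CXCL11 lie below -1.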

How the data were processed

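The authors deposited raw gene counts per library and an FPKM table. Per the submitters' processing notes the build was GRCh38 and DESeq2 1.24.0, R 3.6.1, Picard 2.18.24 and STAR 2.5.2b were used, in roles not given. Not given in the sources used here are the counting program, the annotation and the handling of strand, so reads of overlapping genes may not be separated. For 19251 of 19251 genes counted in every library, FPKM equalled counts times 1 factor per gene and 1 per library (tolerance 1e-06), so it is no independent measurement.

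Counts were tested with edgeR 4.0.16 in R 4.3.3 (quasi-likelihood, robust, TMM, filterByExpr with a minimum of 10 counts, group as only term), with Benjamini-Hochberg adjustment over 16859 genes at 0.05. CPM used TMM-scaled library sizes, and SE was the log2 fold change over the root of F. FPKM alternatives used limma 3.58.1, and DESeq2 1.42.0 was run on the same genes. Within-group library pairs differed by more than sampling noise (chi-square over its degrees of freedom 3.18 to 17.6). The code was tested on simulated data. Floors cover counting error only, while SDs and SEs include spread between libraries.

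Members, lists, tests and naming rules were chosen with earlier results of these data known. Each library's values are given for called members with at least 1 CPM and a log2 change of at least 0.5, for the subunits, NFKBIA, and chemokines. Per wider list the genes with the smallest p, up to 6, were named. NFKBID and N4BP1 were not analysed here, and 1 gene of the wider target list is counted but not named or plotted.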

Additional observations from a re-analysis of the deposited data

How the results depend on the processing

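Under 17 alternatives the number of members that rose lay between 13 and 17 and the number that fell between 7 and 11, against 16 and 10. Of the single values under the alternatives, 567 kept their side of the threshold, and with the sign kept 32 lost a call and 7 gained one. Another 2 changed sign with a call in the main or the alternative fit: with chromosome medians removed RELA was at 0.062 (log2) and BIRC2 at 0.167. Sign changes without a call in either fit count among the 567. TRAF2, at -0.02 in the main fit, reached 0.011 with 1 library left out. Unfiltered FPKM ended 6 calls, those of NFKB2, RELB, NFKBIB, BIRC3, CXCL3 and TNFAIP8. Leaving out 1 library at a time gave between 14 and 17 rises and between 7 and 11 falls. Calls of TNF, IER3, TNFSF10, TNFAIP3, REL, NFKBIA, TNFAIP2 and PLAUR held in all 17. The title numbers 3 and 4 occur in both groups, but nothing says that they pair the libraries. The deviations of same-numbered libraries from their group means correlated at 0.11 and 0.118. With the title number as a replicate block 16 members rose and 9 fell, and 49 wider genes and 7721 genes in all passed, against 56 and 7866. The block ended the calls of NFKB2 and BIRC3 and gave one to IKBKB (adjusted p = 0.00703). Depth limits the precision for CXCL2, CXCL3, CCL3 and CCL4, which have under 100 counts in every library.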

Other observations

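Some genes of the wider lists lay far from 0 and were picked out after their values were seen. CD40, a receptor of antigen-presenting cells that signals to the non-canonical arm, had 23, 33 and 24 counts in EZH2 shRNA libraries, against 1, 2 and 4 in controls. It passed the filter on low counts through the EZH2 shRNA libraries alone, so it had to differ and no test is given. CCL23, a myeloid chemokine of the cluster on chromosome 17 that also holds CCL3 and CCL4, had 32, 46 and 50 counts against 8, 5 and 5. With 2 of 3 controls under the filter cutoff, CCL23 was tested only because of its EZH2 shRNA libraries, so no test is given. PTX3, a secreted pattern recognition protein, had 25, 24 and 27 counts against 65, 56 and 61 (-1.73, SE 0.27, adjusted p = 4.97e-05). TRAF5, an adaptor of CD40 and LTBR, had 8.40, 6.55 and 6.84 CPM in EZH2 shRNA libraries, against 4.25, 3.47 and 4.27 CPM in controls (0.86, SE 0.12, adjusted p = 2.05e-05). IL1RN, the natural antagonist of the interleukin 1 receptor, had 9, 8 and 6 counts against 15, 29 and 11. IRAK2, a kinase of Toll-like receptor signalling, had 6, 1 and 12 counts against 10, 16 and 14. Both passed the filter through the control libraries alone, so no test is given for them.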
